A study of Homo sapiens and Mus musculus with 160 samples.

Results

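The solute carriers are the largest group of membrane transporter genes, and their mRNAs are described here by how long they stay in each compartment of the cell. Members were taken as every gene whose symbol has the form SLC, family number, A, member number, without the mitochondrial SLC25 family, and which had a nuclear and a cytoplasmic half-life in both replicates of a cell line. There were 152 of 12276 such genes in K562 and 134 of 11837 in NIH-3T3, together 178 of 14979, and 108 were members in both lines. The pattern matched 264 symbols in the K562 tables and 255 in the NIH-3T3 tables, and the rest had no value for at least 1 of these half-lives. Members were not chosen by how long their half-lives were, but each needed fitted half-lives in these data. The samples were untreated human K562 cells, an erythroleukemia line, and untreated NIH-3T3 cells, fibroblasts derived from mouse embryos. Subcellular TimeLapse sequencing labels new RNA with a uridine analog, turns the label into T-to-C mismatches and reads the labelled share in fractions of the cell. Each line had 2 replicates, each of 25 libraries: chromatin, nuclear, cytoplasmic, polysome and total RNA at 0, 15, 30, 60 and 120 min of labelling. The labels do not state that the replicates were separate cultures, and the 60 libraries with shRNAs in the series were not analysed here.

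Solute carriers move sugars, amino acids, carboxylates, metals, inorganic ions, vitamins, nucleosides and lipids across the plasma membrane and the membranes of organelles. Most of these proteins are made on ribosomes at the endoplasmic reticulum, since they span the membrane many times. Several, among them the glucose transporter SLC2A1 and the large neutral amino acid transporter SLC7A5 with its heavy chain SLC3A2, are known to respond to growth factors and nutrient supply in many cells. An mRNA is released from chromatin, leaves the nucleus, joins polysomes and is degraded, and the half-lives below measure these steps. A half-life is a time, not an abundance: no level of any mRNA is given here.

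For every gene, replicate and step the deposited tables gave the posterior mode (the most probable half-life under the authors' kinetic model, in minutes, at 2 significant digits) and its 95% credible interval. The chromatin half-life is the time to release from chromatin, the nuclear half-life covers the nucleus as a whole, the export half-life runs from release to the cytoplasm, and the cytoplasmic half-life is the turnover there. Export half-lives are those of the authors' model without nuclear degradation. Polysome loading is the time to join polysomes, and the whole-cell half-life is the turnover of the mRNA in total RNA. The tables give no read counts, so the depth behind a value is unknown and the interval stands in for it. The erythroid markers HBG1, HBG2, GATA1, ALAS2 and TAL1 each had values in K562, and none of them had values in NIH-3T3. Of the fibroblast markers, 3 of 6 had values in K562 (COL1A1, COL1A2 and FN1), against 6 of 6 in NIH-3T3. Replicates ranked the members alike for the nuclear half-life (Spearman's rho across 152 members 0.901 in K562, across 134 members 0.892 in NIH-3T3) and less so for polysome loading in K562 (0.482, 136 members). Some modes lay outside their own interval, mostly for polysome loading: 12 of 144 and 5 of 138 members in the K562 replicates, and 10 of 128 and 2 of 122 in the NIH-3T3 replicates. NIH-3T3 replicate 2 stood apart in the nucleus. There, 59 of 134 members (44%) had a chromatin mode above the mode of the whole nucleus, against 12 of 133 (9.02%) in NIH-3T3 replicate 1 and 13 of 148 (8.78%) and 14 of 147 (9.52%) in the K562 replicates. Over all genes that share was 38.4% in NIH-3T3 replicate 2, so the members shared it with the table as a whole.

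Solute carrier mRNAs stayed long in the nucleus and were short-lived in the cytoplasm in both lines. In K562 the median nuclear half-life of the members was 120 min in both replicates, against 72 and 85 min for all other genes. In NIH-3T3 it was 110 min in both, against 77 min in both for all other genes. The order was the opposite in the cytoplasm. The median cytoplasmic half-life of the members was 46 and 40.5 min in K562, against 86 and 76 min for all other genes, and 24.5 and 21.5 min in NIH-3T3, against 37 and 35 min. The steps before export followed the nuclear order, with chromatin medians of 64 and 74 min for K562 members against 47 and 52 min for all other genes, and 79 and 110 min for NIH-3T3 members against 53 and 72 min. Whole-cell half-lives differed less: 180 and 170 min for K562 members against 210 and 200 min for all other genes, and 110 min in each NIH-3T3 table for both groups. These are medians over genes and carry no test.

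The SLC25 carriers, which bear the same gene prefix and serve the inner mitochondrial membrane, did not have this profile. Their median nuclear half-life was 67.5 and 73 min in K562 and 64 and 58 min in NIH-3T3, and their median cytoplasmic half-life was 130 and 120 min in K562 and 49 and 45 min in NIH-3T3. The median ratio of the nuclear to the cytoplasmic half-life was 2.84 for the members, 0.692 for SLC25 carriers and 0.917 for all other genes in K562. In NIH-3T3 it was 4.76 for the members, 1.24 for SLC25 carriers and 1.93 for all other genes. Other membrane transporters, the ABC families and P-type ATPases, had medians of 2.71 in K562 (44 genes) and 7.24 in NIH-3T3 (42 genes), on the side of the solute carriers.

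**Figure D1:**
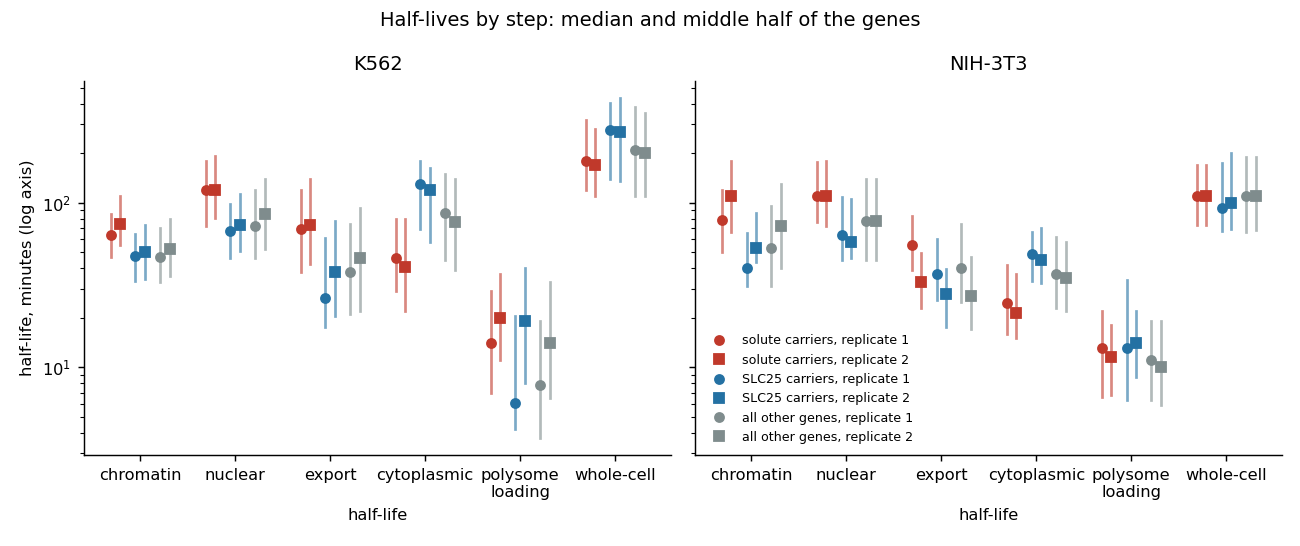
Median half-life in minutes (log axis) at each step for solute carriers, SLC25 carriers and all other genes, with lines from the lower to the upper quartile and 1 marker per replicate, K562 left and NIH-3T3 right. Solute carriers lie above the other genes for the nuclear half-life and below them for the cytoplasmic half-life in both lines.

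As human genes, the 152 K562 members were somewhat longer than average. In GENCODE v29 on GRCh38 all 152 matched, as did 11950 of the 12276 K562 genes (97.3%). The median gene spanned 36.4 kb for members and 31.3 kb for all genes, with 11 against 9 exons and a 3′ UTR of 1428 against 1012 bases. Across the members, the nuclear half-life was weakly related to gene length (Spearman's rho 0.29, 152 genes, against 0.2 over 11950 genes) and the cytoplasmic half-life to 3′ UTR length (−0.18, against −0.14 over all genes). Members of 1 list share libraries and model, so these are descriptions. AU-rich elements and Pumilio sites in 3′ UTRs are known to bind proteins that shorten mRNA life. The AU-rich nonamer TTATTTATT, searched on the transcript strand, occurred in the 3′ UTR of 18 of 152 members (11.8%), against 964 of 11800 genes (8.17%), and the Pumilio motif TGTANATA in 46 members (30.3%), against 26.4% of all genes. The motifs were counted separately.

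The windows below show the nonamer in capitals with 10 bases on either side, read 5′ to 3′ on the transcript strand from GENCODE v29, for 5 members described in the results that follow.
SLC2A3 (chr12:7920927-7920955, minus strand): aacttgagttTTATTTATTttatcctctg
SLC7A11 (chr4:138169540-138169568, minus strand): agactttaatTTATTTATTtttgatttga
SLC7A5 (chr16:87830273-87830301, minus strand): ggcaccatgtTTATTTATTtccagtggtc
SLC12A2 (chr5:128187325-128187353, plus strand): atatttattaTTATTTATTgaaaccttag
SLC36A4 (chr11:93147297-93147325, minus strand): tcacagccttTTATTTATTatgagcagaa
Genes with the nonamer spanned both ends of the cytoplasmic range, from 8 and 8.4 min for SLC2A3 to 440 and 270 min for SLC36A4 in K562. The median cytoplasmic half-life in K562 was 49 and 36 min for the 18 members with the nonamer and 45.5 and 41.5 min for the 134 without it. The nuclear medians were 88.5 and 97 min with it and 120 and 125 min without it, and the whole-cell medians 135 and 112 min with it and 190 and 180 min without it. For the Pumilio motif the cytoplasmic medians were 37.5 and 31.5 min in the 46 members with it and 49.5 and 44 min in the 106 without it. The nuclear medians were 125 and 120 min with it and 110 and 120 min without it. The whole-cell medians were 195 and 160 min with it and 180 min in both replicates without it, so the replicates differed in direction. A motif match is not evidence of binding, and no test was made.

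The nuclear half-life was longer than the cytoplasmic one for most members that could be told apart. A member was called where the 95% intervals of the 2 half-lives did not overlap, in the same direction, in both replicates. In K562 the nuclear half-life was longer in 80 of 152 members and the cytoplasmic one in 12, where 24.2% and 26.4% of all genes were called in those directions. In NIH-3T3 the nuclear half-life was longer in 93 of 134 members and the cytoplasmic one in 1, where all genes gave 51.8% and 5.71%. Among the SLC25 carriers the K562 counts were 4 nuclear and 15 cytoplasmic of 40, against 14 and 2 of 39 NIH-3T3 genes. Among the ABC and P-type ATPase transporters the nuclear half-life was longer in 25 of 44 K562 genes (56.8%, against 52.6% of the solute carriers) and 33 of 42 NIH-3T3 genes (78.6%, against 69.4%). Among the members of both lines, 57 of 108 (52.8%) had the longer nuclear half-life in both, against 20.5% of 9087 genes. In those 108, 9 were called for a longer nuclear half-life in K562 with no call in NIH-3T3. Another 21 were called for it in NIH-3T3 with no call in K562, and 14 had no call in either line. The shares of all genes with these pairs of calls were not counted. Cytoplasmic intervals of members were wider than those of others: a cytoplasmic interval spanned at most 4-fold in 72.4% of K562 members in replicate 1, against 83.7% of all other genes.

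**Figure D2:**
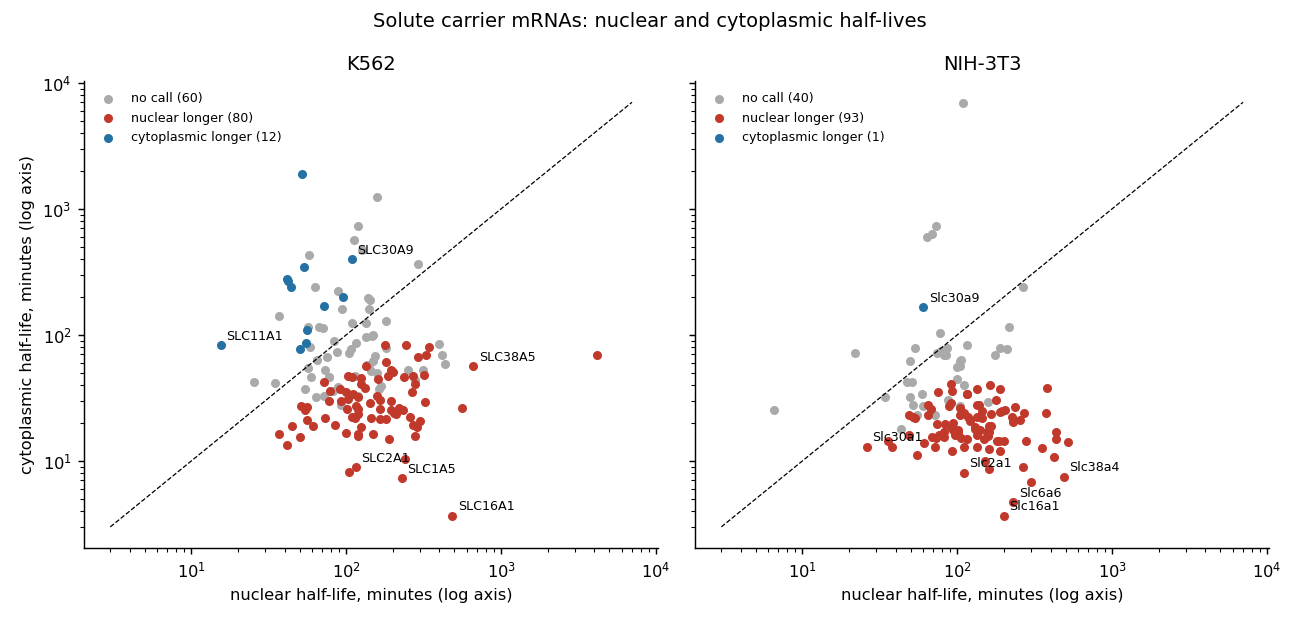
Nuclear against cytoplasmic half-life of each solute carrier, in minutes (log axes), as the mean of the log2 modes of both replicates, K562 left and NIH-3T3 right. The dashed line marks equal half-lives and colours mark the calls: 80 members lie below it with a longer nuclear half-life in K562 and 93 in NIH-3T3.

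Members were grouped into classes by SLC family number, so a class name need not describe each member. SLC5A6, which carries biotin and pantothenate, counts among the sugar and polyol transporters. Amino acid and peptide transporters had a longer nuclear half-life in 18 of 27 K562 members and a longer cytoplasmic one in 1. In NIH-3T3 the counts were 22 and 0 of 31 members. All genes gave 24.2% and 26.4% in K562, and 51.8% and 5.71% in NIH-3T3. SLC1A5, which carries glutamine and other neutral amino acids, had nuclear half-lives of 220 and 240 min in K562 and 260 and 250 min in NIH-3T3. Its cytoplasmic half-lives were 11 and 4.8 min in K562 and 18 and 25 min in NIH-3T3. The nuclear values were at least 10 times the cytoplasmic ones in each of the 4 tables. SLC7A5, whose 3′ UTR holds one of the windows above, had nuclear half-lives of 150 and 180 min in K562 and 310 and 290 min in NIH-3T3. Its cytoplasmic half-lives were 33 and 20 min in K562 and 6.6 and 6.9 min in NIH-3T3. Its heavy chain SLC3A2 was fast at every step, with nuclear half-lives of 36 and 38 min in K562 and 52 and 46 min in NIH-3T3, and its whole-cell half-lives of 45 and 44 min were the shortest of the precisely measured K562 members. Precisely measured means here that the intervals spanned at most 4-fold in both replicates.

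SLC38A2, a neutral amino acid transporter known to respond to amino acid starvation, was also fast, with nuclear half-lives of 56 min in both K562 replicates and 37 and 39 min in NIH-3T3. Other members of its family were among the slowest in the nucleus. SLC38A5, a glutamine and glycine transporter, had 530 and 830 min in the K562 nucleus, the longest precisely measured value there, with 66 and 48 min in the cytoplasm. Slc38a4 in NIH-3T3 had 510 and 470 min in the nucleus and 13 and 4.3 min in the cytoplasm, a mean ratio of 65.5. Neither had both half-lives in both replicates of the other line. SLC38A10 had nuclear half-lives of 280 and 360 min in K562 and 520 min in both NIH-3T3 replicates. SLC7A11, the cystine and glutamate exchanger, had 77 and 80 min in the K562 nucleus and 160 min in both NIH-3T3 replicates, with cytoplasmic half-lives of 40 and 32 min in K562 and 17 and 21 min in NIH-3T3.

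Among sugar and polyol transporters, 8 of 19 K562 members and 8 of 15 NIH-3T3 members had the longer nuclear half-life, and none the longer cytoplasmic one in either line. The longer nuclear half-life was called in 24.2% of all K562 genes and 51.8% of all NIH-3T3 genes, so the NIH-3T3 count is close to that of all genes. The longer cytoplasmic one was called in 26.4% and 5.71% of all genes. SLC2A1, the main glucose transporter of proliferating cells, had nuclear half-lives of 110 and 120 min in K562 and 110 min in both NIH-3T3 replicates. Its cytoplasmic half-lives were 9.1 and 8.7 min in K562 and 9.1 and 7.1 min in NIH-3T3. The lines overlapped at both steps. SLC2A3, a second glucose transporter with a near-identical neighbour, SLC2A14, with which reads could be shared, had 110 and 100 min in the K562 nucleus and 8 and 8.4 min in the cytoplasm. SLC5A2, the kidney glucose transporter, had the second-largest nuclear excess in K562, but its nuclear modes of 6900 and 2500 min had intervals of 580 to 6400 and 590 to 5700 min, and 6900 min is the upper limit of the table.

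The highest ratio of nuclear to cytoplasmic half-life among K562 members belonged to SLC16A1 (MCT1), which carries lactate and pyruvate. Its nuclear half-lives were 490 and 480 min in K562 and 210 and 190 min in NIH-3T3. Its cytoplasmic half-lives were 3.3 and 4.1 min in K562 and 2.3 and 5.9 min in NIH-3T3, the shortest among precisely measured members of each line. The mean ratio of nuclear to cytoplasmic half-life was 132 in K562 and 54.2 in NIH-3T3, where Slc38a4 was higher at 65.5. SLC16A3 (MCT4), a lactate exporter and a member only in K562, had 79 and 110 min in the nucleus against 29 and 27 min in the cytoplasm, with wide intervals that overlapped. In the class of carboxylate, organic ion and lipid transporters, 13 of 30 K562 members and 13 of 22 NIH-3T3 members had the longer nuclear half-life, and 3 and 0 the longer cytoplasmic one. Over all genes the nuclear shares were 24.2% and 51.8% and the cytoplasmic shares 26.4% and 5.71%.

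**Figure D3:**
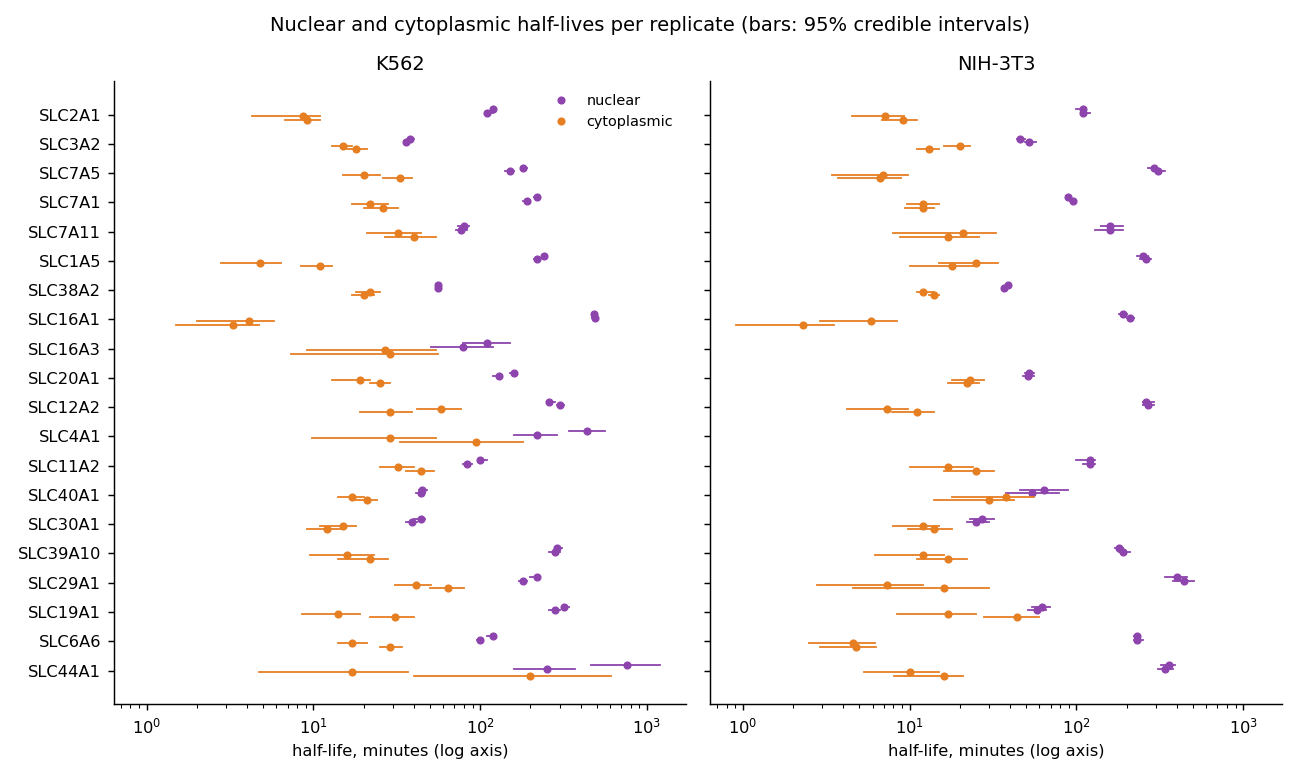
Nuclear and cytoplasmic half-lives in minutes (log axis) of well-known solute carriers, K562 left and NIH-3T3 right, with 1 point per replicate and lines for the 95% credible intervals. SLC16A1 lies near 480 min in the K562 nucleus and near 4 min in the cytoplasm, while SLC40A1 and SLC30A1 lie within 12 to 64 min for both half-lives in every table.

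Metal and heme transporters were split in K562. Of 30 members, 17 had the longer nuclear half-life and 6 the longer cytoplasmic one, and in NIH-3T3 the counts were 21 and 1 of 25. The shares over all genes were 24.2% and 26.4% in K562, and 51.8% and 5.71% in NIH-3T3. SLC39A8, which imports zinc and manganese, had nuclear half-lives of 540 and 580 min in K562 and 320 and 240 min in NIH-3T3, against cytoplasmic half-lives of 30 and 23 min in K562 and 12 and 17 min in NIH-3T3. SLC39A10, a zinc importer, had 280 and 290 min in the K562 nucleus and 190 and 180 min in NIH-3T3. SLC30A1, the zinc exporter of the plasma membrane, was fast throughout, with nuclear half-lives of 39 and 44 min in K562 and 25 and 27 min in NIH-3T3. The iron exporter SLC40A1 (ferroportin) had nuclear half-lives of 44 and 45 min in K562 and 54 and 64 min in NIH-3T3, and cytoplasmic half-lives of 21 and 17 min in K562 and 30 and 38 min in NIH-3T3. The iron importer SLC11A2 (DMT1) stayed longer, with 83 and 100 min in the K562 nucleus and 120 min in both NIH-3T3 replicates, against 44 and 32 min in the K562 cytoplasm and 25 and 17 min in the NIH-3T3 cytoplasm. SLC30A9, a zinc transporter of mitochondria, was the single member with the longer cytoplasmic half-life in both lines, a call that 3.69% of 9087 genes had. Its nuclear half-lives were 91 and 130 min in K562 and 57 and 64 min in NIH-3T3, against cytoplasmic half-lives of 400 min in both K562 replicates and 170 and 160 min in NIH-3T3.

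The remaining K562 members with a longer cytoplasmic half-life included SLC11A1, a metal transporter of phagocytes, with 12 and 20 min in the nucleus, the shortest nuclear value of any precisely measured K562 member, against 83 min in the cytoplasm in both replicates. SLC39A4, an intestinal zinc importer, had 37 and 48 min in the nucleus against 240 and 300 min in the cytoplasm. SLC27A5, a liver acyl-CoA and bile acid-CoA ligase, had 42 and 41 min in the nucleus against 250 and 310 min in the cytoplasm. SLC30A3 had the smallest ratio, 0.0274, but its cytoplasmic mode in replicate 1 was 6900 min, outside its interval of 210 to 6100 min, and replicate 2 gave 510 min with an interval of 72 to 2000 min. SLC36A4, SLC39A13, SLC44A4, SLC35A3, SLC35A4, SLC22A5 and SLC41A1 completed the 12.

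Of these, 5 had the opposite call in NIH-3T3, where the nuclear half-life was the longer: SLC22A5, SLC35A3, SLC35A4, SLC36A4 and SLC41A1. The share of all genes with opposite calls was not counted. Over all genes, 26.4% had the cytoplasmic call in K562 and 51.8% the nuclear call in NIH-3T3. SLC36A4, a proton-coupled amino acid transporter, had nuclear half-lives of 41 and 69 min in K562 and 93 and 110 min in NIH-3T3. Its cytoplasmic half-lives were 440 and 270 min in K562 and 22 and 13 min in NIH-3T3. SLC41A1, a magnesium transporter, had nuclear half-lives of 49 and 52 min in K562 and 110 min in both NIH-3T3 replicates, and cytoplasmic half-lives of 79 and 76 min in K562 and 24 min in both NIH-3T3 replicates. For the carnitine transporter SLC22A5 the cytoplasmic values were 81 and 93 min in K562 and 34 min in both NIH-3T3 replicates. The Golgi nucleotide sugar transporter SLC35A3 had 200 min in the cytoplasm of both K562 replicates, against 42 and 39 min in NIH-3T3. In each of these genes both K562 cytoplasmic values lay above both NIH-3T3 values, but the genes were chosen by these same half-lives. Over all genes the cytoplasmic half-life was also longer in K562, with a median log2 difference of 1.11. The ratio between lines is given below.

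Inorganic ion and pH transporters had the longer nuclear half-life in 13 of 27 K562 members and 18 of 25 NIH-3T3 members, and none had the longer cytoplasmic one. Over all genes the nuclear shares were 24.2% in K562 and 51.8% in NIH-3T3, and the cytoplasmic shares 26.4% and 5.71%. SLC12A2 (NKCC1), which takes up sodium, potassium and chloride together, had nuclear half-lives of 300 and 260 min in K562 and 270 and 260 min in NIH-3T3. Its cytoplasmic half-lives were 29 and 58 min in K562 and 11 and 7.3 min in NIH-3T3. SLC4A1 (band 3), the anion exchanger of red cells and a member only in K562, had 220 and 440 min in the nucleus and 94 and 29 min in the cytoplasm, so its replicates differed 2-fold or more at both steps. Vitamin and nucleoside transporters had the longer nuclear half-life in 6 of 10 members in each line, where all genes gave 24.2% in K562 and 51.8% in NIH-3T3. SLC29A1, the equilibrative nucleoside transporter, had nuclear half-lives of 180 and 220 min in K562 and 440 and 400 min in NIH-3T3, against 64 and 41 min in the K562 cytoplasm and 16 and 7.3 min in the NIH-3T3 cytoplasm.

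**Figure D4:**
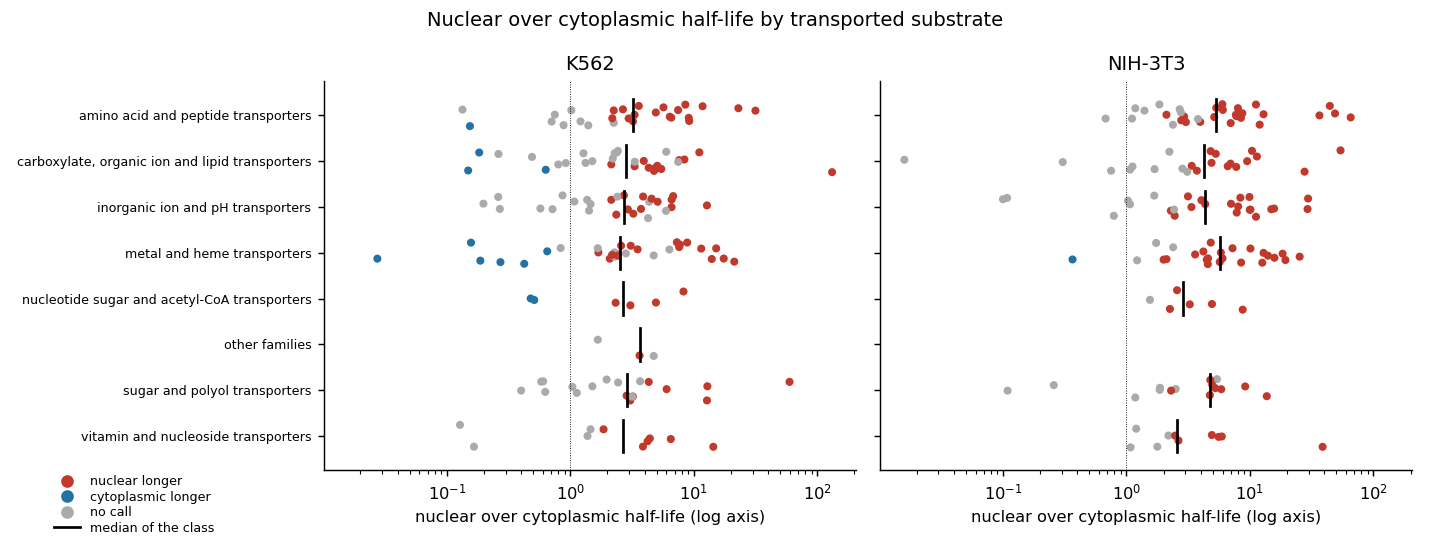
Ratio of the nuclear to the cytoplasmic half-life (log axis, mean over both replicates) of each solute carrier, K562 left and NIH-3T3 right. Classes follow the SLC family number, and vertical bars mark the class medians. Class medians lie between 2.5 and 3.64 in K562 and between 2.56 and 5.7 in NIH-3T3, and the calls for a longer cytoplasmic half-life number 12 in K562 and 1 in NIH-3T3.

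Within the nucleus, release from chromatin and export were set against each other in the same way. In K562 the chromatin half-life was the longer in 18 of 144 members and the export half-life in 35, where all genes gave 26.9% and 19.8%. The order of these K562 counts turned with the call rule: modes at least 2-fold apart in both replicates gave 14 members with the longer chromatin half-life and 9 with the longer export half-life, where all genes gave 21.8% and 8.86%. In NIH-3T3 the chromatin half-life was the longer in 48 of 133 and the export half-life in 1, where all genes gave 29.8% and 1.55%. The NIH-3T3 counts differed between its replicates, in members and in all genes alike. Replicate 1 alone gave 51 chromatin and 9 export calls, where all genes gave 31.1% and 11.4%. Replicate 2 alone gave 101 and 1, where all genes gave 62.9% and 2.23%. That replicate is the table in which chromatin modes often exceeded the nuclear ones. In K562 without replicate 1 the chromatin count was 28, where all genes gave 32.7%. The 35 K562 members with export longer than chromatin release included 11 of 26 amino acid transporters and 11 of 29 metal transporters. SLC20A1, a phosphate importer, had chromatin half-lives of 43 and 55 min in K562 against export half-lives of 100 and 130 min. It has the authors' nuclear degradation call in K562, described below, while these export values come from the model without degradation. SLC38A5 had 160 and 270 min on chromatin against 400 and 590 min for export, and SLC39A9 had 74 and 110 min on chromatin against 200 and 220 min for export. In these 3 genes the export values lay above the chromatin values in both replicates. At the other end, SLC26A6, an anion exchanger, had 110 and 150 min on chromatin against 32 and 26 min for export in K562. Slc50a1, a sugar transporter of the Golgi and plasma membrane, was the single NIH-3T3 member with slower export, with 62 and 72 min on chromatin against 190 and 150 min for export. It was also the 1 of 106 members with longer export in both lines (1.14% of all genes), while 5 of 106 had the longer chromatin half-life in both (12.3% of all genes).

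Loading onto polysomes was faster than cytoplasmic turnover in each member called by its intervals, but few members could be called. The cytoplasmic half-life was the longer in 27 of 136 K562 members and 23 of 120 NIH-3T3 members, where all genes gave 55.9% and 46.8%. The polysome loading half-life was the longer in 0 members of either line, where all genes gave 0.243% and 0.514%. The median loading half-life was 14 and 20 min for K562 members against 7.8 and 14 min for all other genes, and 13 and 11.5 min for NIH-3T3 members against 11 and 10 min. In K562 the loading interval spanned at most 4-fold in 15.3% of members in replicate 1 and 29.7% in replicate 2, against 9.58% and 20.1% of all other genes, so most loading times were known only within a wide range in members and other genes alike. In replicate 1 alone the counts were 73 in K562 and 44 in NIH-3T3, where all genes gave 71.5% and 56%. Among K562 members with narrow intervals the count was 4 of 19 (21.1%), where all genes gave 68.5%. Modes 2-fold apart gave 8 of 136 K562 and 3 of 120 NIH-3T3 members with the longer loading half-life. All genes gave 2.28% and 2.49%, so the NIH-3T3 count is close to that of all genes. The 10 of 97 members called in both lines (42.5% of all genes) were SLC3A2, SLC20A1, SLC30A9, SLC35A4, SLC38A1, SLC38A2, SLC39A7, SLC41A1, SLC48A1 and SLC6A8. Slc48a1, a heme transporter, had cytoplasmic half-lives of 38 and 37 min in NIH-3T3 against 2.5 and 1.8 min for loading. SLC35A4 had a cytoplasmic half-life of 110 min in both K562 replicates against 1.2 and 2.4 min for loading.

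The authors' deposited tables also call genes whose mRNA is in part degraded in the nucleus. In K562, 5 of 140 members assessed had the call (3.57%, against 3.25% of 11409 genes), and in NIH-3T3 1 of 130 (0.769%, against 4.36% of 11667 genes). The K562 share is close to that of all genes. The K562 members were SLC16A1, SLC20A1, SLC5A3, SLC27A5 and SLC39A4. The nuclear degradation half-lives of SLC27A5 were 46 min in both replicates (38 to 66 min) and those of SLC39A4 were 55 min in both (46 to 66 min). For the myo-inositol transporter SLC5A3, whose gene lies within the MRPS6 locus, they were 240 and 200 min. SLC16A1 had 4800 min (2700 to 6900 min) and 6900 min (4000 to 6900 min), far longer than its nuclear half-life. SLC20A1 had 4000 and 170 min, so its replicates were far apart. The NIH-3T3 member was Slc39a13, a zinc transporter, with 120 min (80 to 200 min) and 140 min (96 to 240 min).

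The 108 members of both lines were then compared between lines, K562 minus NIH-3T3 on the log2 scale, with limma fitted across all genes paired by symbol and a Benjamini-Hochberg adjusted p under 0.05 as the call. The lines are of different species and cell types, which cannot be told apart. All genes together were shifted for most half-lives. The median log2 difference over all genes was −0.35 for chromatin, 0.33 for export, 1.11 for the cytoplasm, −0.14 for polysome loading and 0.84 for the whole cell, and 0 for the nucleus. Counts are therefore also given after each table was centred on its own median. Each line had 2 tables, so the calls leaned on the spread over all genes. Leaving out any 1 of the 4 tables removed most or all nuclear, export and cytoplasmic calls, in members and in all genes alike. The median member difference then ran from 0.02 to 0.18 for the nucleus (−0.1 to 0.1 over all genes). It ran from 0.5 to 1.02 for export (0.01 to 0.62) and from 0.76 to 0.98 for the cytoplasm (1.01 to 1.19).

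**Figure D5:**
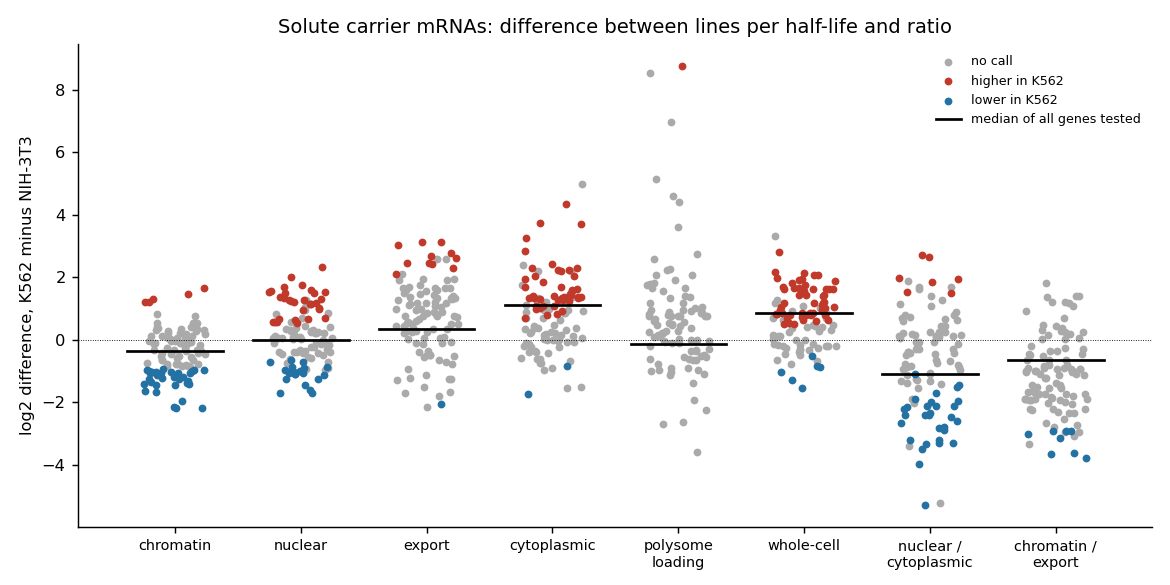
Log2 difference between the lines, K562 minus NIH-3T3, for each solute carrier of both lines, by half-life and for the 2 ratios, with bars at the median of all genes tested. Calls at an adjusted p under 0.05 are coloured, and the cytoplasmic and whole-cell calls follow the shift of all genes above 0.

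The nuclear half-life was higher in K562 in 31 of 108 members and lower in 20, against 19.9% and 20% of all genes (39.9% called). Centred tables gave 33 and 29, against 25.4% and 24.5% of all genes. SLC19A1, the reduced folate carrier, had the largest difference, with 280 and 320 min in K562 and 58 and 62 min in NIH-3T3 (log2 difference 2.32 ± 0.13 SE, adjusted p = 0.0104). Every K562 value was more than 4 times every NIH-3T3 value. SLC39A9, a zinc transporter of the secretory pathway, had 250 and 310 min in K562 and 85 and 79 min in NIH-3T3 (1.76 ± 0.16, adjusted p = 0.011). SLC38A9, which senses arginine at the lysosome, had 220 and 320 min in K562 and 76 and 89 min in NIH-3T3 (1.69 ± 0.24, adjusted p = 0.0172). SLC20A1, SLC16A1 and SLC1A4 were also higher, by 1.49, 1.28 and 1.31. In the other direction, SLC46A1, the proton-coupled folate transporter, had 54 and 55 min in K562 and 200 and 160 min in NIH-3T3 (−1.71 ± 0.16, adjusted p = 0.0112). The 2 folate carriers thus differed in opposite directions. SLC6A9, a glycine transporter, had 80 and 96 min in K562 and 280 and 260 min in NIH-3T3 (−1.62 ± 0.15, adjusted p = 0.0111), and SLC29A1, SLC6A6 and SLC7A5 were also lower, at −1.08, −1.07 and −0.87.

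The cytoplasmic half-life was higher in K562 in 44 of 108 members and lower in 2, against 53.4% and 2.08% of all genes (55.5% called). The median member difference was 0.92, below the 1.11 of all genes. Centred tables gave 5 higher and 23 lower, against 9.84% and 14% of all genes. Of the amino acid transporters, 12 of 23 were higher and 0 lower. SLC36A4 had the largest called difference (4.35 ± 0.41, adjusted p = 0.007, values above), and it was still 3.13 after centring. SLC37A4, which moves glucose 6-phosphate into the endoplasmic reticulum, had 200 and 130 min in K562 and 13 and 22 min in NIH-3T3 (3.25 ± 0.39, adjusted p = 0.00781). SLC6A6, the taurine transporter, had 29 and 17 min in K562 and 4.8 and 4.6 min in NIH-3T3 (2.24 ± 0.33, adjusted p = 0.0103). SLC9A5, a sodium/proton exchanger, was lower, with 22 and 16 min in K562 and 55 and 72 min in NIH-3T3 (−1.75 ± 0.28, adjusted p = 0.012), as was SLC40A1 (−0.84 ± 0.24, adjusted p = 0.0478). SLC2A1 and SLC16A1 did not pass, with differences of 0.15 and 0, below the shift of all genes. SLC7A1, SLC7A11 and SLC38A2 were called higher, by 0.99, 0.92 and 0.69, but lay on the other side of 0 in centred tables, at −0.23, −0.3 and −0.53.

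The chromatin half-life was lower in K562 in 33 of 106 members and higher in 5, against 28.6% and 10% of all genes (38.7% called). Centred tables gave 30 lower and 20 higher, against 26.8% and 25.8% of all genes. Leaving out any 1 table removed most of the calls. SLC6A6 had 47 and 54 min in K562 and 190 and 280 min in NIH-3T3 (−2.19 ± 0.37, adjusted p = 1.49e-06). SLC7A5 had 73 and 110 min in K562 and 280 and 560 min in NIH-3T3 (−2.14 ± 0.37, adjusted p = 3.83e-06), and its value in NIH-3T3 replicate 2 exceeds the nuclear half-life of 290 min in the same table. SLC29A1 had 76 and 110 min in K562 and 330 and 530 min in NIH-3T3 (−2.19 ± 0.37, adjusted p = 1.82e-06). Its value in NIH-3T3 replicate 2 also exceeds its nuclear half-life in that table, given above. SLC19A1 was higher, with 140 min in both K562 replicates and 37 and 52 min in NIH-3T3 (1.67 ± 0.36, adjusted p = 0.000155), as was SLC26A6 at 1.46.

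The export half-life was higher in K562 in 11 of 106 members and lower in 1, against 4.36% and 4.6% of all genes (8.95% called). Centred tables gave 16 and 11, against 9.95% and 15.3% of all genes. Without genes that carry the authors' nuclear degradation call, 4 members were higher and 0 lower, against 2.16% and 2.33% of all genes. SLC16A1 had 290 and 250 min in K562 and 50 and 19 min in NIH-3T3 (3.13 ± 0.58, adjusted p = 0.0387). It has the degradation call in K562, while these export values come from the model without degradation. SLC7A1, the cationic amino acid transporter, had 110 and 150 min in K562 and 27 and 8.1 min in NIH-3T3 (3.12 ± 0.66, adjusted p = 0.0475). SLC5A6, which carries biotin and pantothenate, had 190 and 270 min in K562 and 26 and 30 min in NIH-3T3 (3.02 ± 0.43, adjusted p = 0.0307). SLC2A1 had 72 and 74 min in K562 and 20 and 9.4 min in NIH-3T3 (2.41 ± 0.52, adjusted p = 0.0475), although its nuclear half-lives overlapped. SLC46A1 was the member with a lower value, 39 and 28 min in K562 and 160 and 120 min in NIH-3T3 (−2.07 ± 0.44, adjusted p = 0.0475). For polysome loading, 1 of 97 members passed, SLC36A4, against 0.838% of all genes. Both of its K562 modes, 1900 and 6900 min, lay outside their intervals of 17 to 1600 and 33 to 2800 min. Without such modes limma called 0 of 90 members and 0 of 7911 genes (12 and 891 at an unadjusted p under 0.05).

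The whole-cell half-life was higher in K562 in 53 of 104 members and lower in 6, against 60.2% and 5.06% of all genes (65.3% called). Centred tables gave 17 higher and 31 lower, against 18.2% and 26.3% of all genes. The uncentred calls depended on having both NIH-3T3 tables. SLC30A9 had 960 and 680 min in K562 and 110 and 120 min in NIH-3T3 (2.81 ± 0.21, adjusted p = 0.00354), and 1.85 after centring. SLC19A1 had 280 and 260 min in K562 and 63 and 56 min in NIH-3T3 (2.18 ± 0.12, adjusted p = 0.0033). SLC46A1 had 86 and 80 min in K562 and 290 and 200 min in NIH-3T3 (−1.54 ± 0.22, adjusted p = 0.00999). SLC7A11 was also lower, with 89 and 70 min in K562 and 220 and 170 min in NIH-3T3 (−1.29 ± 0.21, adjusted p = 0.0128). The order of the 2 folate carriers was the same as in the nucleus. SLC2A1 had 120 min in each of the 4 tables (log2 difference 0 ± 0.09), while SLC16A1 had 450 and 420 min in K562 and 220 and 200 min in NIH-3T3 (1.05 ± 0.11, adjusted p = 0.00524), close to the shift of all genes.

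Whether the balance of nucleus and cytoplasm itself differed between the lines was tested on the ratio of the 2 half-lives. The ratio was higher in K562 in 7 of 108 members and lower in 30, against 4.02% and 38.4% of all genes (42.4% called). Centred tables gave 26 and 14, against 15.5% and 14.5% of all genes. The median member difference was −0.57, against −1.08 over all genes. Leaving out any 1 table removed part or all of these calls, in members and in all genes alike. The median member difference then ran from −0.86 to −0.26, against −1.26 to −0.91 over all genes. The 5 members with opposite calls in the lines were chosen by the same half-lives, so their differences are a description and no separate test: SLC36A4 (−5.28 ± 0.66), SLC41A1 (−2.81 ± 0.31), SLC22A5 (−2.42 ± 0.31), SLC35A4 (−2.33 ± 0.33) and SLC35A3 (−2.23 ± 0.35, log2 ± SE). Each was also lower after centring, at −4.11, −1.65, −1.25, −1.16 and −1.06. The ratio of chromatin to export half-life was lower in K562 in 8 of 106 members and higher in 0. Over all genes the shares were 5.21% and 1.92% (7.13% called). The median difference was −1.12 for members and −0.66 over all genes. By limma, 39 of 106 members and 2672 of 9135 genes had an unadjusted p under 0.05. SLC7A5, SLC6A6, SLC2A1, SLC7A1 and SLC20A2 had the largest differences, from −3.79 to −3. Without NIH-3T3 replicate 1 the median difference was −2.11 for members and −1.18 over all genes. Without NIH-3T3 replicate 2 it was −0.6 for members and −0.16 over all genes. The calls did not hold without NIH-3T3 replicate 2 or either K562 replicate. The posterior mean gave 2 called members (3.74% of all genes), so the calls on this ratio depended on the tables used and on the summary of the posterior.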

How the data were processed

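The deposited tables hold, per gene, the authors' posterior modes, means and 95% credible intervals of half-lives in minutes, values that are neither counts nor scores, with 2 significant digits. Per the submitters' processing notes, reads were trimmed with cutadapt 2.5 and aligned with STAR 2.7.0a to the builds hg38 and mm10; per the labels' protocols, libraries came from a stranded total RNA kit. The kinetic model was fitted by the authors in 1 table per line and replicate. Depth per gene is not given in the tables, so precision is read from the credible intervals. Genes were paired between lines by symbol, ignoring case (14100 symbols). Log2 modes were compared with limma 3.58.1 (R 4.3.3), 2 tables a line, with Benjamini-Hochberg adjustment over all genes and a threshold of 0.05. The 2 ratio tests are tests of the interaction of step and line. With no counts, no count model was used. Within a line, half-lives were compared by their intervals, with no p-value. The scripts were tested on simulated data. Since the replicates may be technical, p-values measure only the spread between these tables. Members and lists were chosen with earlier results of these data known. Named genes were the members with the longest and shortest half-lives among those whose intervals spanned at most 4-fold, the largest differences among called members, those with a degradation call, and well-known transporters; SLC35B1, one of these, does not match the symbol pattern, and another is not reported here. Alternatives were the posterior mean, centred tables, narrow intervals, table limits, a replicate block and leaving out each table.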

Additional observations from a re-analysis of the deposited data

Results flagged for a closer look

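For 10 members the ratio of nuclear to cytoplasmic half-life differed between the lines by limma's test of the ratio itself, given as the log2 difference, K562 minus NIH-3T3. It was higher in K562 for SLC19A1 (2.71), SLC38A9 (2.66), SLC9A5 (1.98), SLC1A4 (1.93) and SLC39A9 (1.86). It was lower in K562 for SLC36A4 (−5.28), SLC37A4 (−3.98), SLC39A11 (−3.48), SLC29A1 (−3.32) and SLC6A6 (−3.31). The median over all genes was −1.08, with 4.02% of all genes called higher in K562 and 38.4% lower. The members are the 5 with the largest called differences in each direction, so their directions follow from that choice.

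The ratio of chromatin to export half-life was lower in K562 by the same test for SLC7A5 (−3.79), SLC6A6 (−3.65), SLC2A1 (−3.63), SLC7A1 (−3.15) and SLC20A2 (−3.0), where the median over all genes was −0.66. These 5 are amino acid, taurine, glucose and phosphate transporters. In NIH-3T3 their export modes were shorter in replicate 2 than in replicate 1: 17 against 60 min for Slc7a5, 13 against 62 min for Slc6a6, 9.4 against 20 min for Slc2a1, 8.1 against 27 min for Slc7a1 and 20 against 39 min for Slc20a2. The part of that replicate difference in the result was not tested beyond leaving out each table.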

How the results depend on the processing

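The main fit called 38 members for chromatin, 51 for the nucleus, 12 for export, 46 for the cytoplasm and 1 for polysome loading. It called 59 for the whole cell, 37 for the nuclear to cytoplasmic ratio and 8 for the chromatin to export ratio. Leaving out any 1 table left fewer or no calls for each half-life and for the nuclear to cytoplasmic ratio, in members as in all genes. Calls on the chromatin to export ratio rose or fell with the table left out, in members and in all genes alike. Its median member difference then ran from −2.11 to −0.6, against −1.18 to −0.16 over all genes. A line left with 1 table is assumed to vary like the other. Centred tables gave 27 for export, 28 for the cytoplasm and 16 for the chromatin to export ratio. All genes gave 25.2%, 23.8% and 18.2% in these fits. The chromatin to export ratio gave 2 with the posterior mean (3.74% of all genes), 21 with narrow intervals (20.8%) and 13 without values at table limits (10.3%). It gave 16 without modes outside their interval (12.5%), an alternative chosen after seeing the data. Polysome loading gave 0 under each of these 4. Without degradation calls export gave 4 (4.49% of all genes). With a replicate block, export gave 20 (17.5% of all genes), the chromatin to export ratio 16 (12.8%) and polysome loading 0 (0%). The other counts were 50 for chromatin (49.6%), 36 for the nucleus (24.7%) and 41 for the cytoplasm (50.4%). The whole cell gave 50 (57.3%) and the nuclear to cytoplasmic ratio 32 (37%). Deviations of same-numbered tables correlated across genes at −0.051 to 0.025. A correlation across genes cannot see a shift shared by all genes of a table, so whether the numbers pair the tables was not settled. For chromatin, the median log2 difference of replicate 2 from replicate 1 over all genes was 0.16 in K562 and 0.45 in NIH-3T3. After centring, 6 single differences changed sign: SLC12A2 (−0.48), SLC38A2 (−0.19) and SLC39A10 (−0.18) for the whole cell, and SLC38A2 (−0.53), SLC7A1 (−0.23) and SLC7A11 (−0.3) for the cytoplasm. Within K562, modes 2-fold apart gave 14 members with longer chromatin half-life (21.8% of all genes) and 9 with longer export (8.86%). This is the reverse of the members' order by intervals. The same rule gave 53 with longer cytoplasmic half-life than loading (64.9%) and 8 with longer loading (2.28%). Narrow intervals gave 4 of 19 with longer cytoplasmic half-life than loading (68.5% of all genes). Single replicates gave 26 to 28 with longer chromatin half-life (32.7% to 34.1% of all genes). They gave 37 to 73 with longer cytoplasmic half-life than loading (58.6% to 71.5%) and 0 to 3 with longer loading (1.56% to 3.41%). Within NIH-3T3, modes 2-fold apart gave 3 with longer cytoplasmic than nuclear half-life (4.6% of all genes). They gave 29 with longer chromatin half-life (19.8%) and 3 with longer loading (2.49%). Single replicates gave 2 with longer cytoplasmic than nuclear half-life (8.02% to 9.4% of all genes). They gave 51 to 101 with longer chromatin half-life (31.1% to 62.9%) and 1 to 9 with longer export (2.23% to 11.4%). For loading they gave 32 to 44 with longer cytoplasmic half-life (55.6% to 56%) and 3 with longer loading (2.95% to 3.27%). The calls for a longer nuclear half-life stayed within 1.5 times their count in both lines under each alternative run. The causes were not tested.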
